A study of Mus musculus with 12 samples.

Results

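The genes described here are 40 components of the lysosome, matched by gene symbol among the 54532 genes of the deposited count table. They comprise 2 transcription factors, 5 membrane proteins, 9 cathepsin and legumain proteases, 7 glycosidases, 5 proteins of lipid breakdown, and 12 parts of the proton pump called V-ATPase. All 40 passed the filter on low counts, which kept 13800 genes, and none was below 20.5 CPM (counts scaled to a common library size) in any library. The samples were bone marrow-derived macrophages, primary cells grown from the marrow of male mice aged 8 weeks with M-CSF (50 ng/mL), the growth factor that drives marrow precursors to become macrophages. The mice were labelled Itga9-Lyz2-cHet or Itga9-Lyz2-cKO (cHet and cKO from here on). The alleles are not spelled out further. In lines of this kind the Lyz2 locus usually drives Cre recombinase in myeloid cells, and the labels do not give the number of such copies in either genotype. Cells were either controls or were exposed to Pg, a name the labels do not expand, for 2 hours at a multiplicity of infection given as 1:20. Each of the 4 groups (cHet control, cHet Pg, cKO control, cKO Pg) had 3 poly-A RNA libraries of 14527674 to 16793803 counted reads. Whether each library is a mouse or a culture of its own is not stated, so the p-values describe how far these libraries scatter, and that scatter may be technical.

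The lysosome is the acidic compartment in which macrophages digest engulfed bacteria, dead cells and their own worn components. V-ATPase acidifies it: the V1 sector in the cytosol splits ATP, and the V0 sector in the membrane carries protons inward. Cathepsins, glycosidases and lipid hydrolases then work at the low pH. Many of these genes share a short promoter element, the CLEAR element, whose core CACGTG is bound by TFEB and TFE3, basic helix-loop-helix factors of the MiT/TFE family. These factors move to the nucleus when the lysosome is stressed or nutrients are scarce.

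The promoters of members that the main test of the Pg response called, and of some that it did not, show where this core lies. RefSeq promoters of build GRCm38.p6, from 250 bases before the gene start to a short stretch past it, were matched for 34 of the 40 members. The windows shown end at most 28 bases after the gene start. The sequences are read 5′ to 3′ on the gene's strand, and capitals mark CACGTG. Shown are the 6 called members that hold the 8-letter form TCACGTGA or several copies of the core. Also shown are Ctsa and Ctsd, which hold the 8-letter form. The main test called neither, though some other fits called them.
Atp6v1a, chr16:44139368-44139407, minus strand: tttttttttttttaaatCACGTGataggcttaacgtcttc
Atp6v0e, chr17:26676382-26676421, plus strand: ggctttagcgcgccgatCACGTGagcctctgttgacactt
Atp6v0d1, chr8:105566045-105566084, minus strand: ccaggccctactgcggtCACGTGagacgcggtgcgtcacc
Gla, chrX:134601177-134601249, minus strand: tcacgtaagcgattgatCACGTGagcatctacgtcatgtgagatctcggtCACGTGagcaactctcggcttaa
Mcoln1, chr8:3500431-3500496, plus strand: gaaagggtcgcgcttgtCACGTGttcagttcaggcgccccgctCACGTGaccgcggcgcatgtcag
Lamp1, chr8:13159083-13159168, plus strand: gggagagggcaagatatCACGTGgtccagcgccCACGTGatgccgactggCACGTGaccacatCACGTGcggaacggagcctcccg
Ctsa, chr2:164833744-164833800, plus strand: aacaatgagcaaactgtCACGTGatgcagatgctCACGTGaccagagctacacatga
Ctsd, chr7:142387903-142387942, minus strand: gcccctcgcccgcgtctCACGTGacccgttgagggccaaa

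CACGTG, which reads the same on both strands, was present in 13 of the 34 matched members (38.2%), against 8.09% of the promoters of all 27025 genes in the table. The longer TCACGTGA, which contains it, was present in 7 of 34 (20.6%), against 1.12% of all genes. The 4 copies in Lamp1 were the most in any of these windows. A match describes the letters and shows no binding.

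The checks of the labels came first. Itga9, the integrin subunit named in the genotype, stood at 32.3, 17.9 and 18.9 CPM in cHet control replicates 1 to 3 and at 11.5, 5.98 and 6.42 in cKO control. It was at 19.4, 34.0 and 33.4 CPM in cHet Pg and at 13.6, 11.6 and 7.84 in cKO Pg. Both genotype contrasts were free of overlap, and over both treatments Itga9 was lower in cKO by a log2 difference of -1.46 ± 0.26 (SE, adjusted p = 0.0118). Lyz2, the lysozyme gene named in the genotype, was also lower in cKO, with 8746 to 10978 CPM against 17628 to 22005 and a log2 difference of -0.97 ± 0.06 (adjusted p = 6.4e-08). All 8 macrophage markers checked were above 1 CPM in every group, and their summed level was 25572 to 32909 CPM in cHet and 16636 to 22455 in cKO libraries. Lyz2 is one of them and carried that gap: the other 7 summed to 7944 to 9060 CPM in cHet control and 7890 to 9107 in cKO control, and to 9296 to 10904 in cHet Pg and 9751 to 11477 in cKO Pg. The 7 stromal markers summed to 27.0 to 34.9 CPM in cHet and to 1.06 to 3.03 CPM in cKO, with Lum at 0 in all 12 libraries. Their part in the genotype comparisons was not tested. In each group 1 library stood apart from the other 2 (cHet control 1, cHet Pg 1, cKO control 1 and cKO Pg 3). The level of Itgax, an integrin of dendritic cells and some macrophages, separated them: 115 against 37.0 and 36.2 CPM in cHet control, 59.3 against 137 and 132 in cHet Pg, 125 against 42.4 and 45.1 in cKO control, and 48.0 against 103 and 121 in cKO Pg. In these bulk samples, fewer cells of a type and less RNA per cell cannot be told apart. Calls of the Pg response that were added without these 4 libraries are named below. Those of the other comparisons are named in part.

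Most lysosomal genes were abundant. Per kilobase of gene length (RPKM, over all 12 libraries), Psap, the precursor of the saposins that help degrade sphingolipids, led with 8392. It was followed by the proteases Ctsb (2728), Ctsd (2412) and Ctss (1389), by the macrophage glycoprotein Cd68 (921) and by the membrane glycoprotein Lamp1 (873). At the other end were Tfeb (10.4), the calcium channel Mcoln1 (10.1) and the acid sphingomyelinase gene Smpd1 (6.96). Of the pump, Atp6v0b (146) and Atp6v1a (137) were highest and Atp6v1h (11.9) lowest. The 40 genes together took 7.40% ± 0.13 of all raw counts in cHet control and 6.71% ± 0.15 in cHet Pg. The values were 7.02% ± 0.18 in cKO control and 6.64% ± 0.39 in cKO Pg (SD, n = 3 each).

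The first question was how these genes responded to Pg within 2 hours. Relative to the typical gene, subunits of the V-ATPase rose, and Tfeb fell by more than any other member in both genotypes. Most of the digestive enzymes did not pass the test with all libraries. More of them passed without the 4 libraries that stood apart, as given below. In cHet, 12 of 40 members rose (30%, against a background of 18.0% of all 13800 genes), 2 fell (5%, background 18.0%) and 26 did not pass. In cKO, 18 rose (45%, background 16.9%), 1 fell (2.5%, background 17.1%) and 21 did not pass. The median log2 change of the 40 was 0.13 in cHet and 0.17 in cKO, against -0.01 and 0.00 over all genes tested. Of the members, 11 rose in both genotypes, Tfeb fell in both, Atp6v1d passed as higher in cHet alone, 7 passed as higher in cKO alone, and 19 passed in neither. These counts are from the main test, edgeR's quasi-likelihood test with TMM scaling, at an adjusted p below 0.05.

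The scale matters for all of them. TMM scaling sets the typical gene to no change, and its factors were 1.07 to 1.11 in controls and 0.91 to 0.93 under Pg. With library size alone, all genes shifted by a median of -0.24 log2 under Pg in each genotype. Members that rose were then 3 in cHet (Ctsc, Atp6v1e1 and Atp6v1h) and 4 in cKO (Neu1, Atp6v1a, Atp6v1e1 and Atp6v1h), while 12 and 7 fell. On that scale 9.33% of all genes rose and 39.4% fell in cHet, and 8.91% rose and 38.7% fell in cKO. Directions below are relative to the typical gene. With library size alone the sign turned for Atp6v0d1 and Atp6v1d in cHet and for Lamp1, Lamp2, Cd63, Ctsb, Gaa and Asah1 in cKO, all called higher with TMM scaling.

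**Figure D1:**
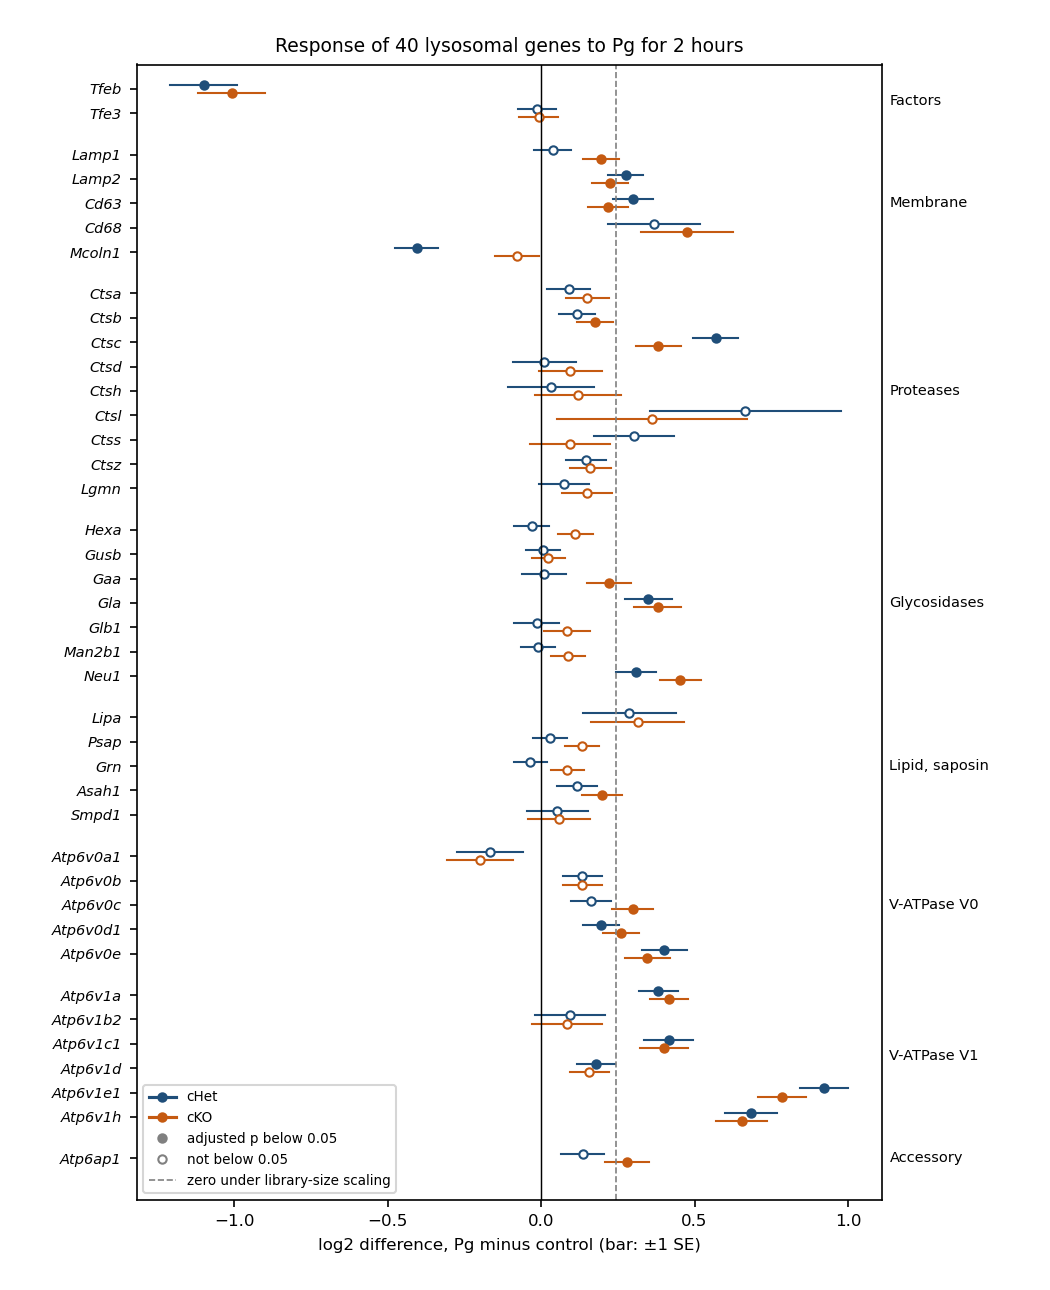
Log2 change from control to Pg for each of the 40 genes (horizontal axis, TMM scaling, bars ± SE), in cHet and cKO, with filled points for an adjusted p below 0.05. Tfeb lies farthest left at -1.10 and -1.01, and Atp6v1e1 has the highest filled points at 0.92 and 0.79; with library size alone the members that rose number 3 in cHet and 4 in cKO.

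Tfeb (ENSMUSG00000023990, chr17:47737030-47792419, plus strand, mm10) encodes a master regulator of lysosomal genes. It was at 84.2, 81.2 and 84.7 CPM in cHet control and at 31.3, 41.0 and 44.3 in cHet Pg. In cKO it was at 85.1, 74.7 and 68.0 CPM in control and at 40.1, 37.5 and 35.6 under Pg. Every Pg library was below every control library. The log2 change was -1.10 ± 0.11 in cHet (adjusted p = 1.1e-06) and -1.01 ± 0.11 in cKO (adjusted p = 3.1e-06).

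Tfe3, the other factor, did not move with it. Its levels were 226, 205 and 224 CPM in cHet control, 224, 214 and 212 in cHet Pg, 209, 234 and 226 in cKO control, and 227, 216 and 222 in cKO Pg. All 4 groups overlapped, and the 95% confidence interval of the Pg change was -0.14 to 0.12 log2 in cHet and -0.14 to 0.12 in cKO. Of the remaining family members, Tfec, a factor found mainly in macrophages, rose in both genotypes. It stood at 56.4, 63.5 and 65.2 CPM in cHet control and 186, 155 and 151 in cHet Pg, and at 71.9, 73.5 and 72.4 in cKO control and 136, 145 and 176 in cKO Pg. Its log2 change was 1.41 ± 0.10 in cHet (adjusted p = 1.3e-08) and 1.07 ± 0.10 in cKO (adjusted p = 3.2e-07). Mitf, the factor for which the family is named, rose in cHet (0.48 ± 0.12, adjusted p = 0.00642), while its value in cKO was 0.03. Per length, Tfec was at 11.03 RPKM in cHet control and 29.3 in cHet Pg, when Tfeb was at 14.7 and 6.86.

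**Figure D2:**
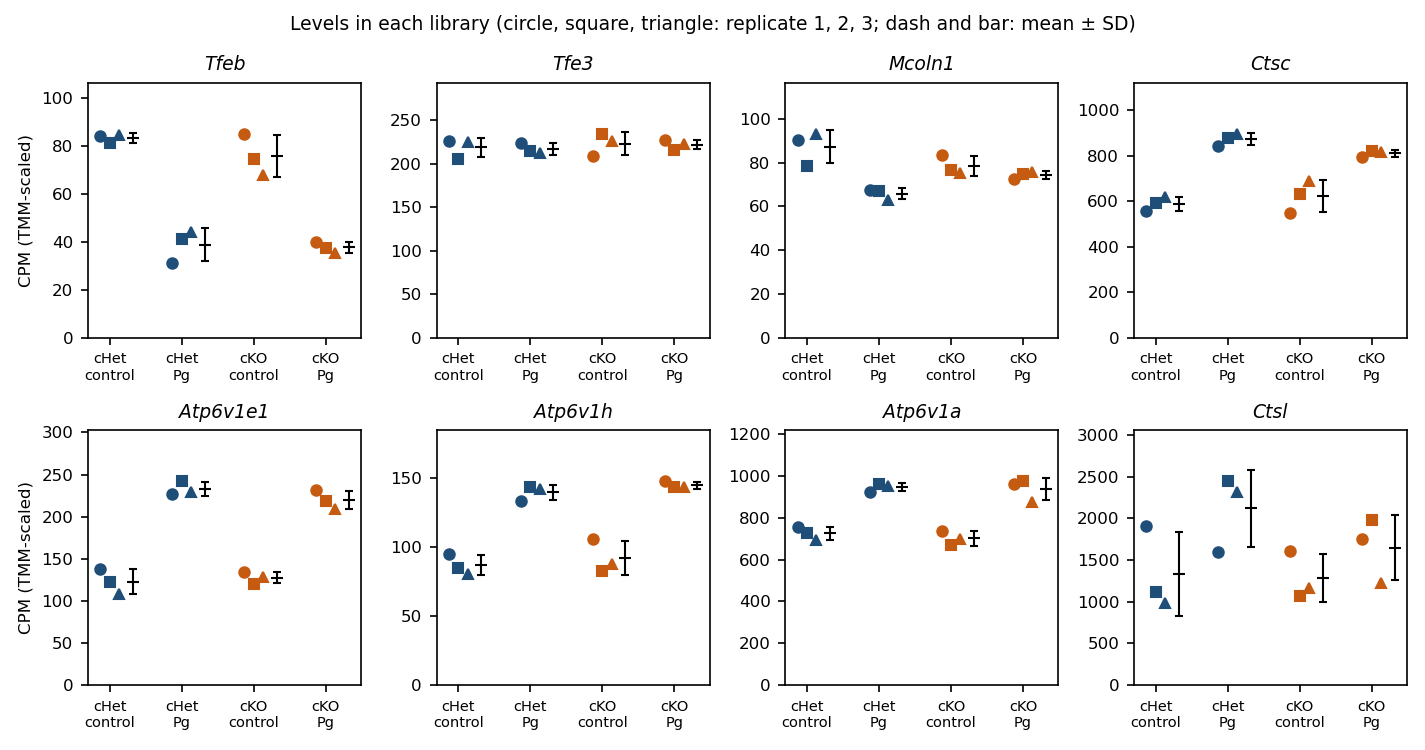
CPM of 8 genes in each library (points, by group and replicate) with the group mean and SD beside them, each vertical axis starting at 0. Tfeb Pg libraries sit at 31.3 to 44.3 against 68.0 to 85.1 in controls, Atp6v1e1 libraries separate the opposite way, and Ctsl libraries overlap across all groups.

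The proton pump held the largest increases. Of its 12 members, 7 rose in cHet (58.3%, background 18.0%, median 0.19) and 8 in cKO (66.7%, background 16.9%, median 0.29). None fell (background 18.0% and 17.1%). With library size alone 2 were higher and 1 lower in cHet (background 9.33% and 39.4%). In cKO 3 were then higher and 1 lower (background 8.91% and 38.7%). With TMM scaling, 5 of 6 in the V1 sector rose in cHet and 4 of 6 in cKO (background 18.0% and 16.9%). Atp6v1e1 (chr6:120794305-120822793, minus strand), which encodes an E subunit of the peripheral stalk, was at 138, 122 and 108 CPM in cHet control and 227, 242 and 229 in cHet Pg. In cKO it was at 134, 121 and 128 CPM in control and 231, 219 and 209 under Pg. Control and Pg libraries did not overlap. Its log2 change was 0.92 ± 0.08 in cHet (adjusted p = 7.5e-08) and 0.79 ± 0.08 in cKO (adjusted p = 5.7e-07).

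Atp6v1h (chr1:5070018-5162529, plus strand) encodes the H subunit, which regulates the coupling of V1 to V0. It rose from 94.9, 85.1 and 80.5 CPM to 133, 143 and 142 in cHet, and from 106, 82.3 and 87.8 to 148, 143 and 143 in cKO. The groups did not overlap, and the log2 changes were 0.68 ± 0.08 (adjusted p = 5.7e-06) and 0.65 ± 0.08 (adjusted p = 9.9e-06). Atp6v1a (chr16:44085402-44139705, minus strand) encodes the catalytic A subunit. It went from 757, 726 and 695 CPM to 924, 961 and 952 in cHet and from 739, 670 and 697 to 961, 975 and 877 in cKO, again with no overlap. The log2 changes were 0.38 ± 0.06 (adjusted p = 0.000131) and 0.42 ± 0.06 (adjusted p = 5.7e-05). Atp6v1c1, a subunit that helps join V1 to V0, rose by 0.42 in cHet and 0.40 in cKO. Atp6v1d of the central stalk passed in cHet (0.18, adjusted p = 0.0349) and not in cKO (0.16, adjusted p = 0.0634), and the difference between these responses did not pass the interaction test. The cHet call was lost without cHet control 1 or 3 or cHet Pg 2 or 3 (adjusted p = 0.0778 to 0.117). Atp6v1b2, the B subunit of the ATP-splitting ring, had 0.09 in each genotype and did not pass.

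In the V0 sector, Atp6v0e, a small membrane subunit, rose by 0.40 ± 0.07 in cHet (adjusted p = 0.000387) and 0.35 ± 0.07 in cKO (adjusted p = 0.00149). Its levels were 109.9, 89.3 and 101 CPM in cHet control and 134, 134 and 129 in cHet Pg, against 106, 99.8 and 94.6 in cKO control and 133, 128 and 121 in cKO Pg. No Pg library overlapped a control. Atp6v0d1, at the base of the central stalk, rose by 0.19 in cHet (adjusted p = 0.0155) and 0.26 in cKO (adjusted p = 0.00225). Its cHet call was lost without cHet control 2 or cHet Pg 1 (adjusted p = 0.0725 and 0.0739). Atp6v0c, the proteolipid of the rotating ring, passed in cKO (0.30, adjusted p = 0.0019) and had 0.16 in cHet (adjusted p = 0.0647). Near-identical pseudogenes of Atp6v0c and Cd63 are in the table, with 684 and 9585 reads in all for the larger ones, so the split of reads between copies is uncertain. Atp6v0b had 0.13 in each genotype and did not pass. Atp6v0a1, the a subunit isoform abundant in neurons, was the V-ATPase member with a negative value, -0.17 in cHet and -0.20 in cKO, neither past the threshold. It passed as lower in both genotypes with no filter on low counts (-0.19, adjusted p = 0.0255, and -0.22, adjusted p = 0.00717), with library size alone (-0.41 and -0.44) and with the Itgax covariate (-0.33 and -0.28). Without the 4 libraries that stood apart its values were -0.0092 and -0.025. Atp6ap1, the accessory subunit, rose in cKO (0.28, adjusted p = 0.00524) and had 0.14 in cHet (adjusted p = 0.153).

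Of 7 further V-ATPase genes that passed the filter, 4 rose in cHet (57.1%, background 18.0%) and 2 in cKO (28.6%, background 16.9%). In cKO 1 fell, Atp6v1g2 at -0.66 (14.3%, background 17.1%). Tcirg1 encodes the a3 isoform of the subunit that Atp6v0a1 also encodes, and per length it was higher, at 259 against 69.1 RPKM. It rose from 1134, 1078 and 1082 CPM to 1315, 1308 and 1320 in cHet and from 1054, 1017 and 1006 to 1178, 1189 and 1204 in cKO. The changes were 0.26 ± 0.05 (adjusted p = 0.00101) and 0.21 ± 0.05 (adjusted p = 0.00457). Atp6ap2, the prorenin receptor and a pump assembly factor, rose by 0.46 in each genotype, and Atp6v1g1 of the peripheral stalk rose by 0.24 in cHet. With library size alone the values for Tcirg1 in cKO (-0.029) and Atp6v1g1 in cHet (-0.0019) were below 0. The Atp6v1g1 call was lost without cHet control 3 or cHet Pg 2 (adjusted p = 0.0838 and 0.0818), and that of Atp6v1g2 without cKO control 2 or cKO Pg 3 (adjusted p = 0.0557 and 0.0681).

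Fewer of the digestive enzymes passed. Of the 21 proteases, glycosidases and lipid proteins, 3 rose in cHet (14.3%, near the background of 18.0%) and 6 in cKO (28.6%, background 16.9%). The medians were 0.07 and 0.15, and none fell (background 18.0% and 17.1%). With library size alone 1 was higher and 7 lower in cHet (background 9.33% and 39.4%). In cKO 1 was then higher and 3 lower (background 8.91% and 38.7%). Among the 9 proteases, Ctsc rose in both genotypes. Ctsc (chr7:88278085-88310888, plus strand) encodes dipeptidyl peptidase 1, which activates granule serine proteases. It was at 557, 590 and 618 CPM in cHet control, 843, 879 and 895 in cHet Pg, 548, 630 and 686 in cKO control and 793, 821 and 815 in cKO Pg. Control and Pg did not overlap, with log2 changes of 0.57 ± 0.07 (adjusted p = 1.1e-05) and 0.38 ± 0.07 (adjusted p = 0.000592). Ctsb, the most abundant cathepsin per length, passed in cKO (0.18, adjusted p = 0.0246) and had 0.12 in cHet (adjusted p = 0.125). The cKO call for Ctsb was lost without any 1 of cKO control 2 or 3 or cKO Pg 1 or 2 (adjusted p = 0.0591 to 0.135).

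The other 7 proteases had positive values in both genotypes under TMM scaling and passed the main test in neither. Ctsd, the main aspartic protease, had 0.01 in cHet and 0.10 in cKO. Ctss, which trims the MHC class II invariant chain, had 0.30 and 0.09. Ctsa, Ctsh, Ctsl, Ctsz and Lgmn, the asparaginyl endopeptidase legumain, lay between 0.03 and 0.67. Without the 4 libraries that stood apart, Ctsa, Ctsh, Ctsl, Ctss, Ctsz and Lgmn passed as higher in both genotypes and Ctsd in cKO. With the Itgax covariate, Ctsd and Ctsh passed as lower in cHet, Ctsl as higher in both genotypes and Ctsz as higher in cKO. The exons of Ctsa share 495 bases with Pltp on the opposite strand, a gene with 104% of the reads of Ctsa, and the strand setting of the counting is not given in the sources used here. Of 6 cathepsins outside the 40, none passed in either genotype. Of 4 cathepsin inhibitors tested, 3 rose in cHet (75%, background 18.0%): Cstb (0.57, adjusted p = 2.4e-05), Cst7 (0.82, adjusted p = 0.00381) and Cst3 (0.26, adjusted p = 0.00449). Only Cstb passed in cKO (25%, background 16.9%), at 0.26 (adjusted p = 0.0167), and not without cKO control 3 (adjusted p = 0.0996). Cst7 was low, at 2.68 to 6.32 CPM.

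Among the 7 glycosidases, Gla and Neu1 rose in both genotypes and Gaa in cKO. Neu1 (chr17:34931253-34935953, plus strand) encodes the lysosomal sialidase. It was at 111, 110.0 and 105 CPM in cHet control and 131, 130.3 and 141 in cHet Pg, and at 106, 98.3 and 94.1 in cKO control and 146, 133 and 129.7 in cKO Pg. No Pg library overlapped a control, and the log2 change was 0.31 ± 0.07 (adjusted p = 0.00141) in cHet and 0.45 ± 0.07 (adjusted p = 4.5e-05) in cKO. Gla, the alpha-galactosidase, rose by 0.35 ± 0.08 (adjusted p = 0.00174) and 0.38 ± 0.08 (adjusted p = 0.000885). Gaa, the glycogen-degrading alpha-glucosidase, had 0.22 in cKO (adjusted p = 0.0234) and 0.01 in cHet, and its cKO call was lost without any 1 of cKO control 2 or 3 or cKO Pg 1 or 2 (adjusted p = 0.0562 to 0.113). Hexa, Gusb, Glb1 and Man2b1 lay between -0.03 and 0.11 and did not pass. Glb1 shares exon bases with Tmppe, whose reads came to 11.6% of those of Glb1.

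Of the 5 proteins of lipid breakdown, Asah1, the acid ceramidase, rose in cKO (0.20, adjusted p = 0.0253), a call lost without cKO control 2, cKO control 3 or cKO Pg 2 (adjusted p = 0.0848 to 0.130). Lipa, the acid lipase that frees cholesterol from its esters, had 0.29 in cHet and 0.31 in cKO and did not pass. Psap, Grn (progranulin) and the acid sphingomyelinase gene Smpd1 lay between -0.04 and 0.13.

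Of 30 further hydrolases and activators, 5 rose and 3 fell in cHet (16.7% and 10%, both below the background of 18.0%). In cKO 7 rose and 3 fell (23.3% and 10%, against 16.9% and 17.1%). The peptidase gene Dpp7 rose by 0.39 in cHet (adjusted p = 0.000658) and 0.52 in cKO (adjusted p = 5.0e-05). Sgsh, the heparan sulfatase, fell by 0.78 (adjusted p = 1.0e-06) and by 0.49 (adjusted p = 0.000164).

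The membrane proteins moved in both directions. Lamp2, the partner of Lamp1 in the membrane coat, rose by 0.28 ± 0.06 in cHet (adjusted p = 0.00125) and 0.23 ± 0.06 in cKO (adjusted p = 0.00593). The tetraspanin Cd63 rose by 0.30 ± 0.07 (adjusted p = 0.00163) and 0.22 ± 0.06 (adjusted p = 0.0151), and its cKO call was lost without cKO control 2 or cKO Pg 2 (adjusted p = 0.0720 and 0.0564). Lamp1 passed in cKO (0.20, adjusted p = 0.0177) and had 0.04 in cHet, and it too lost its call, without cKO control 3 or cKO Pg 2 (adjusted p = 0.0636 and 0.0677). Cd68 passed in cKO at 0.48 ± 0.15 (adjusted p = 0.0304) and had 0.37 ± 0.15 in cHet (adjusted p = 0.0802). Its cKO call was lost without any 1 of cKO control 2 or 3 or cKO Pg 1 or 2 (adjusted p = 0.0718 to 0.0957).

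Mcoln1 (chr8:3500457-3515232, plus strand) encodes TRPML1, the channel that releases calcium from the lysosome. It was at 90.2, 78.6 and 93.1 CPM in cHet control and at 67.7, 67.0 and 63.1 in cHet Pg, with no overlap. In cKO it was at 83.7, 76.7 and 75.4 CPM in control and at 72.5, 74.9 and 75.8 in Pg, with overlap. The fall in cHet was -0.41 ± 0.07 (adjusted p = 0.000253), and the cKO value was -0.08 ± 0.07 (adjusted p = 0.431). The difference between these responses was 0.33 log2, with a 95% confidence interval of 0.11 to 0.54. In edgeR it did not pass over all genes (adjusted p = 0.167). With log2 Itgax as a covariate, a fit chosen after seeing the data, that difference was 0.34 with an adjusted p of 0.0291. Its relative Mcoln2 rose by 1.46 ± 0.19 in cHet (adjusted p = 0.000184) and 1.31 ± 0.19 in cKO (adjusted p = 0.000384). Of the 22 further membrane genes, 6 rose and 6 fell in cHet (27.3% each, background 18.0% each), and 7 rose and 3 fell in cKO (31.8% and 13.6%, background 16.9% and 17.1%). The peptide transporter Slc15a3 rose by 0.59 (adjusted p = 5.3e-06) and 0.54 (adjusted p = 1.4e-05).

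Genes that send enzymes to the lysosome, tie it to mTORC1 or serve autophagy were also listed. The shares of these lists were in part near the background, which was 18.0% higher and 18.0% lower in cHet and 16.9% and 17.1% in cKO. Of 10 sorting genes, 4 rose and 2 fell in cHet (40% and 20%), and 2 rose and 1 fell in cKO (20% and 10%). Igf2r, the large mannose 6-phosphate receptor, rose by 0.73 (adjusted p = 6.5e-06) and 0.49 (adjusted p = 0.000386). The adaptor gene Gga3 fell by 0.37 (adjusted p = 0.00148) and by 0.35 (adjusted p = 0.00255). Of 14 tested genes of the Rag, Ragulator and folliculin group, which ties lysosomal nutrient state to mTORC1, 4 rose and 3 fell in cHet (28.6% and 21.4%), and 4 rose and 1 fell in cKO (28.6% and 7.14%). Rheb, the GTPase that activates mTORC1, rose by 0.74 (adjusted p = 3.2e-06) and 0.51 (adjusted p = 0.000174). Flcn, encoding folliculin, fell by 0.84 (adjusted p = 5.1e-09) and by 0.31 (adjusted p = 0.000400). Of 21 autophagy genes, 5 rose and 5 fell in cHet (23.8% each), and 7 rose and 4 fell in cKO (33.3% and 19.0%). Sqstm1, the cargo receptor p62, went from 2095, 2254 and 2106 CPM to 6105, 5824 and 5981 in cHet and from 2051, 2023 and 2225 to 6116, 5958 and 6092 in cKO. No library overlapped, and the changes were 1.47 ± 0.06 (adjusted p = 6.8e-12) and 1.53 ± 0.06 (adjusted p = 2.8e-12). Over all 116 further lysosomal and autophagy genes tested, of 127 listed, 33 rose and 19 fell in cHet (28.4% and 16.4%), and 31 rose and 13 fell in cKO (26.7% and 11.2%).

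Members with and without the promoter core are given side by side, and the difference between them was not tested. In cHet, 4 of the 13 with CACGTG rose and 1 fell, and 6 of the 21 without it rose and 1 fell (background 18.0% higher and 18.0% lower). In cKO, 6 of 13 rose and none fell, against 8 of 21 that rose and 1 that fell (background 16.9% and 17.1%). The median log2 changes were 0.09 with the core and 0.15 without it in cHet, and 0.20 and 0.16 in cKO. The members printed above span the range: Atp6v1a, Atp6v0e, Atp6v0d1 and Gla rose in both genotypes, Mcoln1 fell in cHet, and Ctsa and Ctsd did not pass the main test.

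The second question was whether the genotypes differed. One gene of the 40 did by the test. In controls 1 member was lower and 0 were higher in cKO than in cHet (2.5% and 0%, against a background of 3.02% and 2.13%), under Pg 0 of 40 passed (background 1.85% in either direction), and over both treatments 1 was lower and 0 were higher (2.5% and 0%, background 2.78% and 2.13%). Man2b1 (chr8:85083270-85098282, plus strand), the lysosomal alpha-mannosidase, was at 1178, 1145 and 1168 CPM in cHet control and 961, 1003 and 1011 in cKO control. Under Pg it was at 1189, 1114 and 1162 CPM in cHet and 1040.3, 1087 and 1034 in cKO. No cKO library reached a cHet library of the same treatment. The log2 difference was -0.23 in controls (95% confidence interval -0.35 to -0.11, adjusted p = 0.0210), -0.13 under Pg (adjusted p = 0.325) and -0.18 over both (-0.26 to -0.10, adjusted p = 0.00903). The control call was lost on leaving out cHet control 1, cHet control 3 or any 1 of the 3 cKO controls (adjusted p = 0.0545 to 0.0750). The call over both treatments was kept in all 12 such fits. As given above, stromal markers were lower in cKO libraries too. Of the 116 further lysosomal and autophagy genes, 1 was higher and 2 were lower in cKO controls (0.862% and 1.72%), and 2 were higher and 1 lower under Pg. In controls Fnip2, encoding a partner of folliculin, was lower by a log2 difference of -0.32 (adjusted p = 0.0110, or 0.0775 without cKO control 3). Flcn was at -0.21 (adjusted p = 0.0415) in controls, a call lost without any 1 of the 6 control libraries, cHet Pg 2 or 3 or cKO Pg 2 (adjusted p = 0.0579 to 0.144). Under Pg the neutrophil granule protease gene Ctsg was lower in cKO (-0.95, adjusted p = 0.000684), and the 6 neutrophil markers summed to 398 to 621 CPM in cHet Pg and 371 to 554 in cKO Pg, whose part was not tested.

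**Figure D3:**
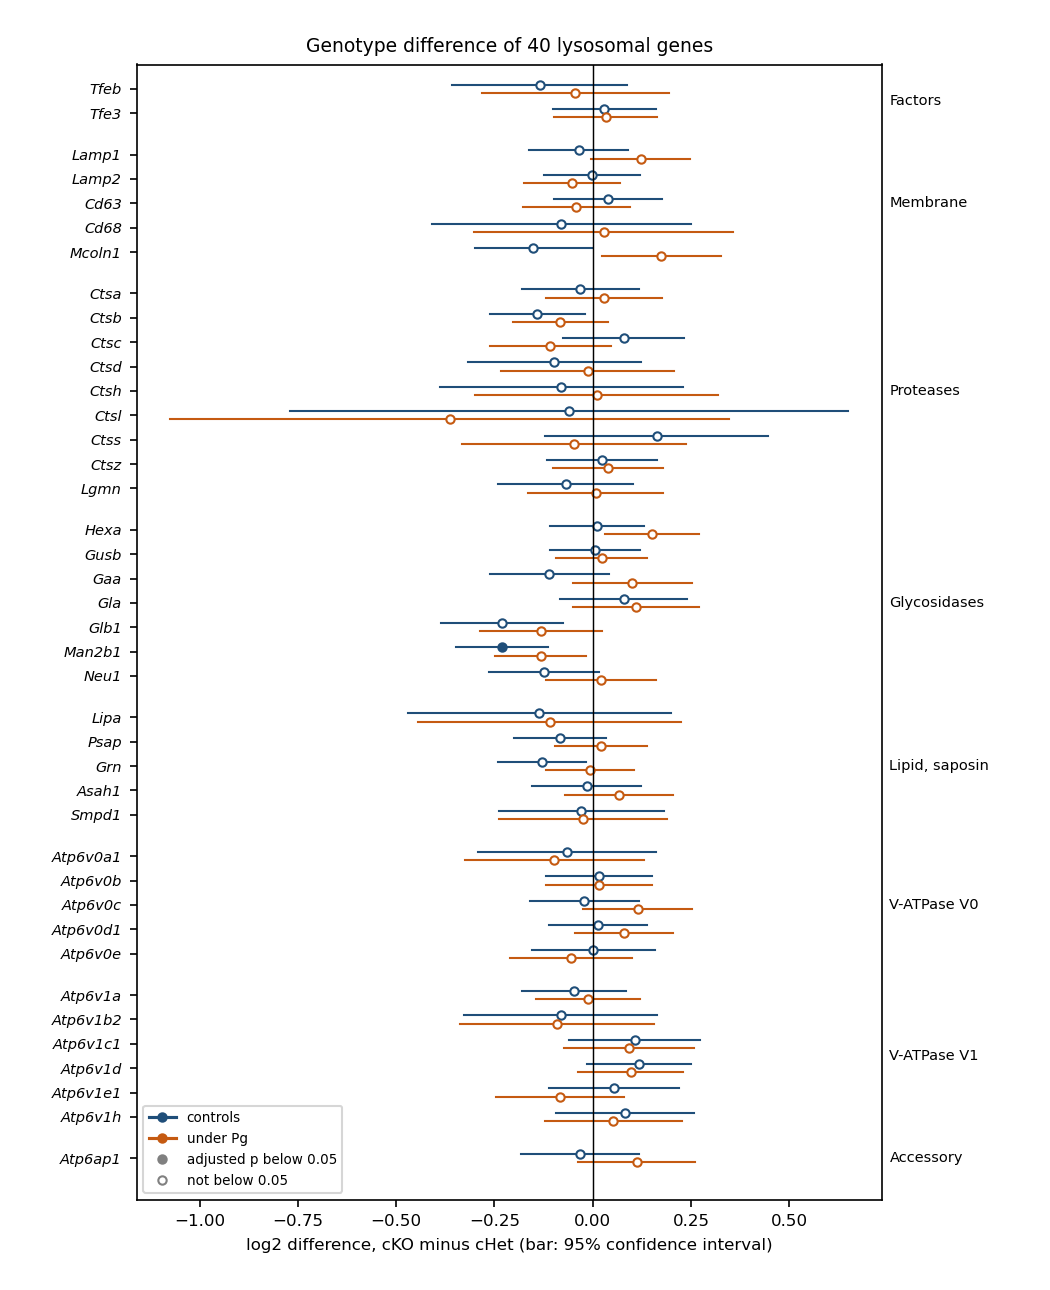
Log2 difference of cKO minus cHet for each gene in controls and under Pg (points, with 95% confidence intervals as bars). The single filled point is Man2b1 in controls at -0.23, and the widest intervals are those of Ctsl.

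For the other members the intervals give the sizes compatible with the data. Glb1, the beta-galactosidase, was the next by p in controls at -0.23 (-0.39 to -0.08, adjusted p = 0.0846). It passed as lower in controls with no filter, without cHet Pg 1, with the Itgax covariate and without the 4 libraries that stood apart. Over both treatments it was called lower by DESeq2, with no filter, without cHet control 1 and without cHet Pg 2. The Itgax covariate and the omission of the 4 libraries gave that call too. Glb1 and Itga9 are both on chromosome 9, starting at bases 114401076 and 118606690. Any part of this position in the difference was not tested. Under Pg the smallest p belonged to Hexa, a subunit of beta-hexosaminidase, and to Mcoln1. Hexa was at 1051, 990.1 and 1036 CPM in cHet Pg and 1143, 1173 and 1104 in cKO Pg, with a difference of 0.15 (0.03 to 0.27, adjusted p = 0.251). Mcoln1 had 0.17 (0.02 to 0.33, adjusted p = 0.312). For Tfeb the interval was -0.36 to 0.09 in controls and -0.28 to 0.19 under Pg, and for Atp6v1e1 it was -0.11 to 0.22 and -0.25 to 0.08. For Ctsl it reached from -0.77 to 0.65 in controls and from -1.07 to 0.35 under Pg. The Itgax covariate and the omission of the 4 libraries that stood apart were chosen after seeing the data. In both of these fits Hexa passed as higher and Ctsl as lower in cKO under Pg, and Ctsb as lower in controls.

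The third question was whether the response to Pg differed between genotypes. By the interaction test 0 of 40 members passed (background 0.717% of all genes). DESeq2 also called 0. The smallest p among the 40 belonged to Mcoln1, described above. Next was Gaa, at 217, 194 and 195 CPM in cHet control, 197, 210.2 and 203 in cHet Pg, 193, 188 and 180.1 in cKO control and 232, 227 and 195 in cKO Pg. Its interaction was 0.21 (-0.00 to 0.42, adjusted p = 0.401), and with the Itgax covariate it was 0.25 with an adjusted p of 0.0453. For Tfeb it was 0.09 (-0.23 to 0.42), and for Atp6v1e1 -0.14 (-0.37 to 0.09). Of the 116 further lysosomal genes, 2 passed and both were higher, Flcn and Vps18. Interaction calls differed without the 4 libraries that stood apart, a fit chosen after seeing the data. There Lamp1, Mcoln1, Ctsd and Hexa passed as higher and Ctsc and Ctsl as lower. Of all 13861 genes tested in that fit, 461 were higher and 407 lower.

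The spread within groups was small for most members. The SD of log2 level within groups had a median of 0.086 over the 40, against 0.161 over all 13800 genes, which hold many genes of lower count. It ranged from 0.030 to 0.387. Ctsl (chr13:64359337-64370890, minus strand), singled out after its values were seen, had the largest, followed by Cd68 at 0.207 and Lipa at 0.206. Ctsl encodes cathepsin L, a broad endopeptidase. It was at 1912, 1113 and 982 CPM in cHet control and 1594, 2445 and 2316 in cHet Pg. In cKO it was at 1609, 1071 and 1164 CPM in control and 1746, 1974 and 1218 in Pg. The high libraries were cHet control 1, cHet Pg 2 and 3, cKO control 1, and cKO Pg 1 and 2, the same as for Itgax.

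In 10 of the 40 members (25%) the library farthest from the other 2 was the one named above in all 4 groups. The share was 7.31% over all genes tested, which hold many genes of lower count, so the 2 shares are not matched for level. The 10 members were the proteases Ctsd, Ctsh, Ctsl, Ctss and Lgmn, together with Glb1, Lipa, Atp6v0a1, Atp6v1b2 and Atp6v1c1. Glb1 ran opposite to the other 9, at 139 CPM in cHet control 1 against 149 and 146, and at 162 in cHet Pg 1 against 129 and 138. Atp6v0d2, the d subunit isoform of osteoclasts and some macrophages, followed Ctsl, at 202, 77.6 and 74.0 CPM in cHet control, 108, 224 and 209 in cHet Pg, 212, 80.4 and 76.7 in cKO control and 190, 217 and 92.5 in cKO Pg. Over the 5 dendritic markers the summed level was 41.4 to 119 CPM in cHet control, 67.5 to 148 in cHet Pg, 48.6 to 130 in cKO control and 59.9 to 130 in cKO Pg, nearly all of it Itgax. The 4 dendritic markers other than Itgax summed to at most 11.97 CPM in any library. Over the 7 osteoclast markers the summed level was 170 to 355 CPM in cHet control, 275 to 494 in cHet Pg, 146 to 336 in cKO control and 228 to 417 in cKO Pg. Without Atp6v0d2 and Acp5 the other 5 summed to 71.7 to 95.7, 70.1 to 120, 49.1 to 63.1 and 54.97 to 77.2 CPM in the same order, with Calcr at or near 0. The part of these markers in the spread of the members was not tested.

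**Figure D4:**
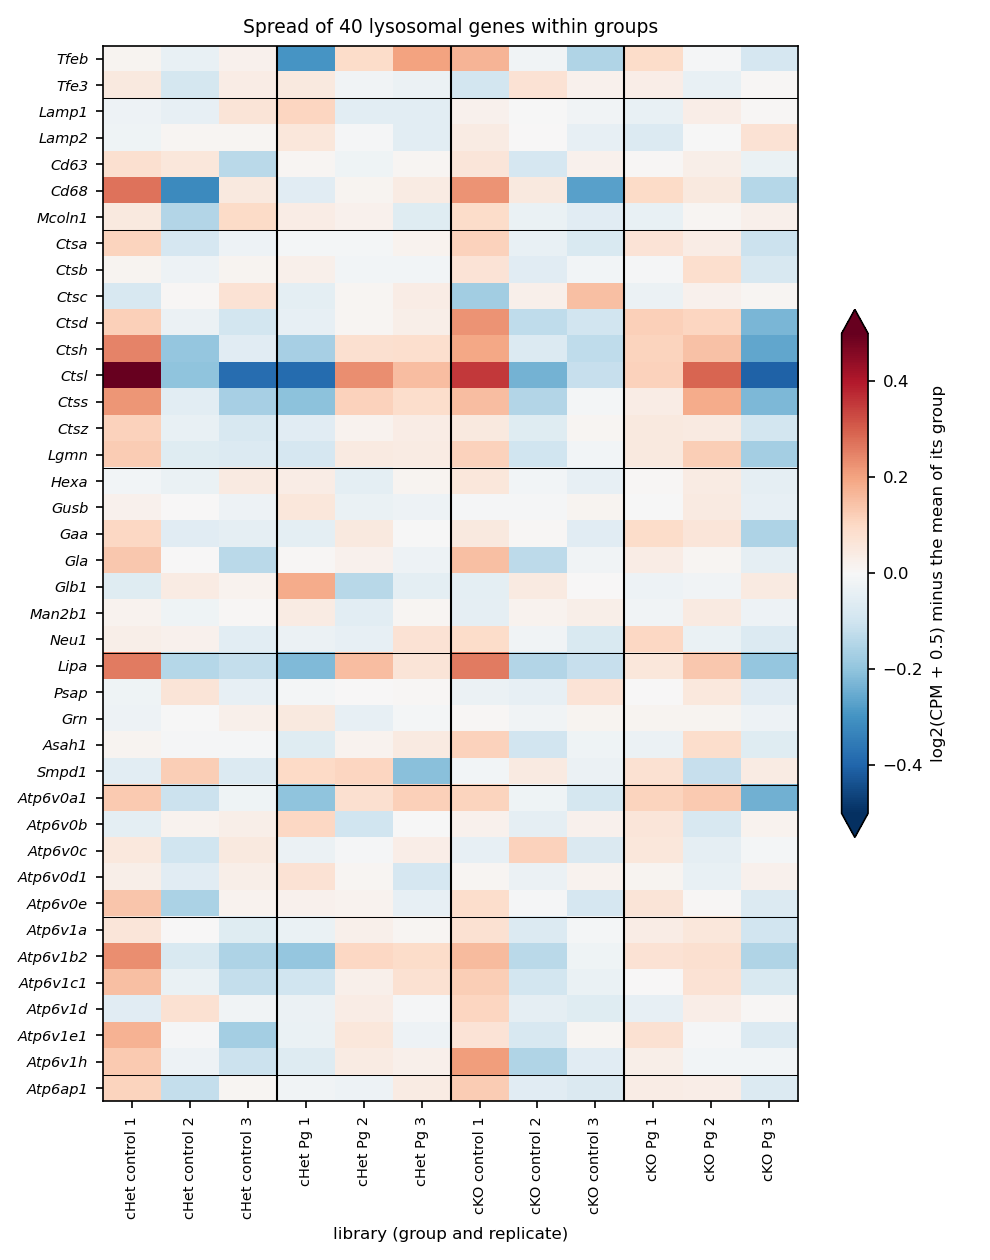
Colours give log2(CPM + 0.5) minus the mean of its group for each of the 40 genes (rows, by role) in each of the 12 libraries (columns, by group and replicate), red for higher and blue for lower. The Ctsl row is the most strongly coloured, red in cHet control 1 and cKO control 1 and blue in cHet Pg 1 and cKO Pg 3.

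Leaving out cHet control 1 alone brought Ctsl in cHet past the threshold (1.03, adjusted p = 0.0291). Without those 4 libraries, a choice made after seeing the data, the controls kept were all low in Itgax and the Pg libraries kept were all high in it. The members that rose then numbered 23 in cHet and 31 in cKO, against 2988 and 2855 of all 13861 genes tested. In cHet the added calls were Ctsa, Ctsh, Ctsl, Ctss, Ctsz, Lgmn, Lipa, Asah1, Atp6v0c, Atp6v1b2 and Atp6ap1. In cKO they were Ctsa, Ctsd, Ctsh, Ctsl, Ctss, Ctsz, Lgmn, Hexa, Lipa, Psap, Atp6v0b, Atp6v1b2 and Atp6v1d. Glb1 was called lower in cHet. Ctsl passed in both genotypes in that fit, at 1.18 in cHet and 0.74 in cKO, against 0.67 (adjusted p = 0.137) and 0.36 (adjusted p = 0.429) with all libraries. With log2 Itgax as a covariate, Ctsl passed with smaller values, 0.27 (adjusted p = 0.000732) and 0.15 (adjusted p = 0.0346). Lipa had 0.53 and 0.55 without the 4 libraries, and 0.06 and 0.21 with the covariate. The size of the response of these genes therefore depended on how the libraries that stood apart were treated. Tfeb, Atp6v1e1, Atp6v1h, Atp6v1a, Ctsc and Neu1 kept their calls in both fits and both genotypes.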

How the data were processed

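The values used are raw read counts that the authors deposited, 1 table with a column for each of the 12 libraries. The submitters' processing notes list featureCounts 1.5.0-p3, HISAT2 2.0.5 and fastp, on build mm10. Neither the strand setting nor the handling of multiply mapped reads is given in the sources used here, so reads of overlapping or near-identical genes can be misassigned. Per the labels' protocols, polyadenylated RNA was enriched and fragments of 370 to 420 bp were selected. Counts were tested here with edgeR 4.0.16 (R 4.3.3): filterByExpr, TMM scaling, 1 mean per group over all 12 libraries, robust quasi-likelihood F tests, and Benjamini-Hochberg adjustment over the 13800 genes kept, with a threshold of 0.05. CPM are on TMM-scaled library sizes, and RPKM divide these by the deposited gene length. The test was checked on simulated counts. Alternatives were library-size and DESeq2-type scaling, DESeq2 1.42.0, no filter, only the libraries compared, a replicate block, leaving out each library, and 2 fits chosen after seeing the data. The 40 members and the gene lists were chosen with earlier results of these data known. Values per library were given for Tfeb, Tfe3 and Atp6v0e and, per comparison, for the 6 called members of smallest p (2 if none passed). Other lists gave at most 3. Ctsl, Itgax and Atp6v0d2 were singled out after their values were seen.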

Additional observations from a re-analysis of the deposited data

Results flagged for a closer look

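The response to Pg differed between cKO and cHet for 2 lysosomal genes outside the 40, by the interaction test over all 13800 genes, in which 0.717% were called. Flcn, encoding folliculin, which regulates the Rag GTPases, was at 201, 207 and 209.9 CPM in cHet control and 111, 117 and 118 in cHet Pg. In cKO it was at 174, 182 and 179 CPM in control and 149, 145 and 139 under Pg, so it fell less, with an interaction of 0.53 ± 0.08 log2 (SE, edgeR, adjusted p = 0.0056). Vps18, a subunit of the HOPS and CORVET tethering complexes that bring vesicles to the lysosome, was at 161, 157 and 142 CPM in cHet control and 171, 161 and 167 in cHet Pg. In cKO it was at 131, 137 and 133 CPM in control and 199 to 208 under Pg, with an interaction of 0.48 ± 0.09 log2 (adjusted p = 0.0116). Leaving out each library in turn gave 0.50 to 0.56 for Flcn and 0.44 to 0.54 for Vps18, and both passed in all 12 fits. Under Pg the level of Vps18 was higher in cKO by 0.28 (adjusted p = 0.0178), a call lost without cHet Pg 2 or 3 or cKO Pg 1 or 2 (adjusted p = 0.0609 to 0.102).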

How the results depend on the processing

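Of 35 calls of members over the 4 comparisons that made any, all 35 were kept with DESeq2's size factors in edgeR and with DESeq2 itself, 34 with the replicate block (Atp6v1d in cHet had an adjusted p of 0.0524), 34 with the Itgax covariate, 32 with no filter and 32 of 34 with only the libraries compared. With library size alone 12 were kept, 15 missed the threshold and 8 turned: under Pg in cHet Atp6v0d1 (-0.051) and Atp6v1d (-0.066), and in cKO Lamp1 (-0.049), Lamp2 (-0.019), Cd63 (-0.026), Ctsb (-0.068), Gaa (-0.023) and Asah1 (-0.044). Of other named genes Atp6v1g1 in cHet (-0.0019) and Tcirg1 in cKO (-0.029) turned with it. That scaling gave 3 higher and 12 lower members in cHet and 4 higher and 7 lower in cKO. With no filter 3 members were lower under Pg in cHet and 2 in cKO (Atp6v0a1 joining Tfeb and Mcoln1 in cHet and Tfeb in cKO). That fit also gave 2 lower in cKO controls and 2 over both treatments. Of all 27404 genes in it, 2594, 2482, 627 and 672 were lower in the same order. DESeq2 also gave 2 members lower over both treatments (468 of all 13800 genes). With the Itgax covariate 5 members were lower under Pg in cHet and 2 in cKO (2637 and 2714 of all 13800 genes). In that fit cKO against cHet gave 4 lower in controls, 1 higher and 1 lower under Pg and 5 lower over both treatments. The interaction gave 2 higher. Calls were more frequent over all 13800 genes too, with 935 lower in controls against 417 in the main test. Under Pg 300 were higher and 462 lower, against 90 and 165. Over both treatments 834 were lower, against 383, and by interaction 380 were higher, against 63. Without the library farthest from the other 2 in each group, 23 rose in cHet and 31 in cKO (2988 and 2855 of all 13861 genes). That fit gave 1 higher and 5 lower in cKO controls, 2 higher and 1 lower under Pg and 3 lower over both treatments. By interaction it gave 4 higher and 2 lower. Of all 13861 genes, 635 were higher and 787 lower in cKO controls, and 299 and 472 under Pg. Over both treatments 699 were lower, and by interaction 461 were higher and 407 lower. Beyond the construction of each fit the cause was not tested. Leaving out each library in turn gave 11 to 17 higher and 2 lower in cHet, 12 to 21 higher and 1 lower in cKO, 0 to 2 lower in cKO controls, 1 to 2 lower over both treatments, and 0 by interaction. The lowest count of 12 was without cKO Pg 2. Of 420 such refits of a call, 390 kept it. The 420 include refits without a library outside the groups compared, which left those groups whole and kept every call. All 30 losses came on leaving out a library of the groups compared. Of 12 pairs of same-numbered libraries, 3 had a correlation above 0.1 (range -0.34 to 0.41), and 3 libraries correlated best with their own number. The libraries that stood apart enter these correlations, so the check cannot decide whether the numbers mark pairs. Here the numbers were used as names of samples, with the replicate block as an alternative. Depth was not limiting for the members: each had over 20 CPM in each library.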
